A study of Mus musculus with 4 samples.

Results

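The lipid droplet coat genes described here are the CIDE family (Cidea, Cideb and Cidec) and the perilipin family (Plin1 to Plin5), together with Pnpla2, the gene of the lipase ATGL, and G0s2, the gene of its inhibitor. They were taken by symbol, and all 10 were measured, each by 1 probe set with a single gene symbol, among 18782 genes tested. Arrays were run on alveolar macrophages, which live in the airspaces of the lung, sorted from adult C57BL/6 mice. WT mice were PPARg fl/fl, with floxed alleles of Pparg and no Cre. KO mice were CD11cCre/PPARg fl/fl, with the same floxed alleles and a Cre under the CD11c promoter, which is active in alveolar macrophages and also in dendritic cells. Each genotype had 2 arrays, and each array held cells pooled from 2 mice, so the spread between arrays is that between pools. WT cells were sorted as CD11b-low and KO cells as CD11b-high, and the labels call the first mature and the second arrested and immature, so genotype, gate and stage of maturation cannot be told apart. The question, from the series title, is what the nuclear receptor PPARγ controls in these cells, here in the genes that coat, enlarge and break down lipid droplets.

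Lipid droplets hold triglycerides and sterol esters in a core that is covered by a phospholipid monolayer and coat proteins. CIDE proteins gather where droplets touch and let lipid pass from the smaller to the larger droplet, while perilipins shield the core and set how far lipases can reach it. ATGL takes the first fatty acid from a triglyceride; ABHD5 activates it and G0S2 blocks it. Alveolar macrophages take up and break down surfactant lipid, and droplets buffer the fatty acids this releases. PPARγ binds DNA with the receptor RXR at direct repeats of a short half-site, and several droplet coat genes are known targets of PPARs in fat and liver.

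Among these genes 4 were lower in KO macrophages and 0 higher, by limma on log2 values with Benjamini-Hochberg adjustment over all genes, at an adjusted p under 0.05 (0 were higher at an unadjusted p under 0.05 as well). They were Cidec, Plin2, G0s2 and Pnpla2. Over all genes tested 6.86% were lower and 7.41% higher, so 4 lower of 10 was a larger share than that of the whole table, in a set chosen with earlier results of these arrays known. Both KO arrays lay below both WT arrays for the same 4 genes, as they did for 30.0% of all genes, and above them for Plin3. Fold changes ran from 50.8-fold lower (Cidec) to 1.39-fold lower (Pnpla2). The other 6 members did not pass the test. The median difference of the 10 was -0.19 on the log2 scale, against -0.015 over all genes.

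**Figure D1:**
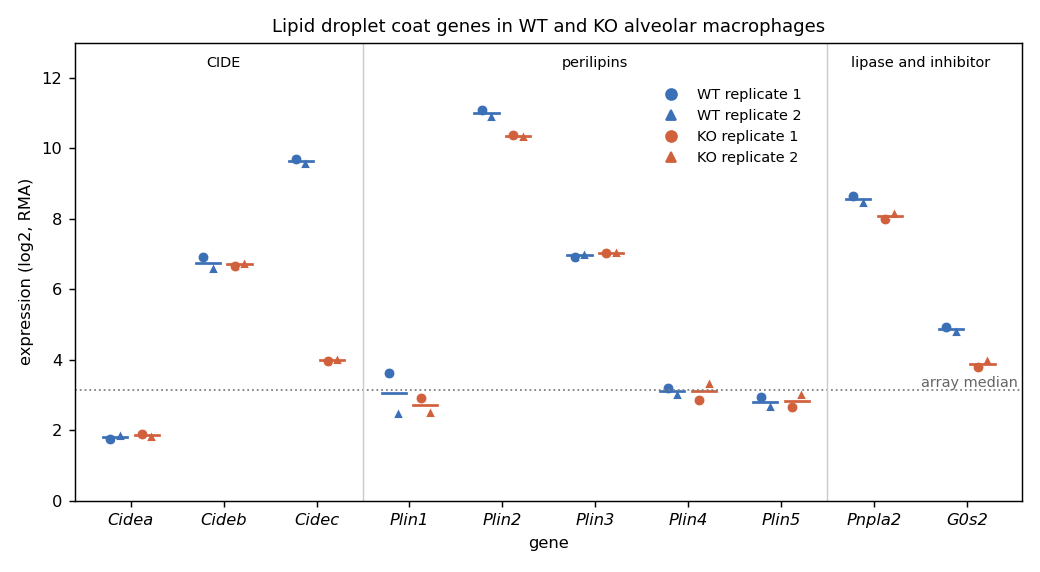
Expression (log2, RMA) of the 10 genes on each array, WT in blue and KO in orange, circles for replicate 1, triangles for replicate 2 and bars for group means; the dotted line is the array median of 3.14. Cidec drops from 9.65 to 3.98, Plin2, Pnpla2 and G0s2 drop by less, and Cidea, Plin1, Plin4 and Plin5 lie near or below the array median in both groups.

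The deleted receptor acts at DNA, so the sequence upstream of the 4 lower genes is shown. Each stretch is the 250 bases before a transcription start from RefSeq on GRCm38.p6, written 5′ to 3′ along the gene. The table held 9 of the 10 members, with 11 starts in all. Cidec has 2 starts there, and both are shown. Capitals mark matches, on either strand, to the PPAR half-site AGGTCA, its direct repeat AGGTCANAGGTCA, the C/EBP motif TTGCNNAA, the PU.1 core GAGGAA, the CCAAT box CCAAT and the GC box GGGCGG. Every match to the direct repeat also holds the half-site.
Cidec upstream start, chr6:113435761-113436010, minus strand: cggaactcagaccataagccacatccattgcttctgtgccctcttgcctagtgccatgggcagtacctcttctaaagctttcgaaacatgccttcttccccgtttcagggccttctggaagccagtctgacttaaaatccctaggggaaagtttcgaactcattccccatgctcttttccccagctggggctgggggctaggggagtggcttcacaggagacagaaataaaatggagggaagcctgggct
Cidec downstream start, chr6:113434765-113435014, minus strand: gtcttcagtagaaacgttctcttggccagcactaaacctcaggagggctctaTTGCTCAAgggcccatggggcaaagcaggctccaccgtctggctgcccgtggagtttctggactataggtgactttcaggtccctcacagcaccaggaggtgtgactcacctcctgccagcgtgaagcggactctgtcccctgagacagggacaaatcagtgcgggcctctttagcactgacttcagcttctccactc
Plin2, chr4:86670060-86670309, minus strand: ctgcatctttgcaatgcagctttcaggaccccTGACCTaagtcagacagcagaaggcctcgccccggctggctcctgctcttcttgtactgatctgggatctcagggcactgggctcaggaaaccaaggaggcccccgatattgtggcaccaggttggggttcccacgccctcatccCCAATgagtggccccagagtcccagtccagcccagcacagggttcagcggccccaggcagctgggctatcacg
Pnpla2, chr7:141454938-141455187, plus strand: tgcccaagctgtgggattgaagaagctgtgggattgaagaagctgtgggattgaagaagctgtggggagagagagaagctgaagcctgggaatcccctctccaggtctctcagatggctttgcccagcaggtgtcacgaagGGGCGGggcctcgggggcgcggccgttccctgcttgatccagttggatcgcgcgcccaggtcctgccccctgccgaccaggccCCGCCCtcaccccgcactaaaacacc
G0s2, chr1:193273189-193273438, minus strand: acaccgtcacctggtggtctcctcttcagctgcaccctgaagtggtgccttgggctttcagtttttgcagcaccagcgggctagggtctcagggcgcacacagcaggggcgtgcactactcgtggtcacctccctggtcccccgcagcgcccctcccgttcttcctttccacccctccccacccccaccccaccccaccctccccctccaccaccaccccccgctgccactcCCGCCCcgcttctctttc

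The direct repeat was in 0 of the 11 member stretches, and in 0.0335% of all 32851 stretches of this length in the table. The half-site was in 2 of the 11, against 14.0% of all stretches. In Plin2 it lay on the minus strand of the gene, from 218 to 213 bases before the start. The other was in Plin5, which did not pass the test. The upstream Cidec stretch held none of the motifs searched. The downstream one held a C/EBP match from 198 to 191 bases before its start. This motif was in 2 of the 11 member stretches (9.56% of all stretches), the other being in Plin1. GC boxes were in 6 of the 11 (32.7% of all), in Pnpla2 and G0s2 and also in Cideb, Plin3 and Plin5. A CCAAT box was in 4 of the 11 (33.8% of all), in Plin2 and also in Plin3, Plin4 and Plin5. Of these genes, Cideb, Plin1, Plin3, Plin4 and Plin5 did not pass the test. The PU.1 core (23.3% of all stretches) was found in Plin1 alone among the members. These are exact matches of letters in a short window, with no mismatch allowed, and sites farther away were not examined. At a share of 0.0335% the direct repeat was hardly to be met in 11 stretches. Its absence therefore does not set these genes apart, and sites that depart from its letters would be missed.

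Cidec (Entrez Gene 14311), also called Fsp27, encodes the CIDE protein that drives the growth of large droplets in fat cells. It read 9.71 and 9.59 on the WT arrays and 3.96 and 4.01 on the KO arrays. Both KO arrays lay far below both WT arrays, with a gap of 5.58 between the nearest of them, against 0.13 between the WT arrays and 0.05 between the KO arrays. In KO 1.97% of the WT level was left, with values not far above the array median of 3.14. Differences are compressed at so low a level, so less may remain. The difference was -5.67 ± 0.10 (SE, limma adjusted p = 8.27e-06). It was the third lowest difference of the 18782 genes. With any 1 array left out the difference stayed between -5.73 and -5.60, with adjusted p from 1.68e-05 to 9.04e-04. In bulk RNA of sorted cells, fewer cells with a transcript and less of it per cell cannot be told apart.

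The other CIDE genes did not follow it. Cideb (Entrez Gene 12684), best known in liver, where it acts in droplet fusion and lipoprotein loading, read 6.92 and 6.61 in WT and 6.67 and 6.76 in KO. The KO values lay between the WT values. The difference was -0.04 ± 0.13 (adjusted p = 0.883), with a 95% confidence interval from -0.36 to 0.27, which reached neither -1 nor 1. Cidea (Entrez Gene 12683), typical of brown fat, read 1.75 and 1.88 in WT and 1.90 and 1.85 in KO. These values were near the lowest of the table (0.96), and the groups overlapped. A fall from so low a level could hardly be measured, and the interval ran from -0.19 to 0.31. Whether the change of Cidec differed from that of its relatives was not tested with a contrast of its own. The interval of Cidec, from -5.91 to -5.42, did not overlap with theirs.

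Of the 5 perilipins, Plin2 was lower and the other 4 were not past the test. Plin2 (Entrez Gene 11520) encodes the perilipin found on droplets of most cells, macrophages among them. It read 11.1 and 10.9 in WT and 10.4 and 10.3 in KO. Both KO arrays were below both WT arrays, and the gap of 0.55 between the nearest arrays was wider than the 0.15 between the WT arrays. The difference was -0.65 ± 0.10 (limma adjusted p = 0.0099), which left 63.9% of the WT level. Its signal lay near the top of the scale (12.11), and whether the fall is compressed there was not tested. Its adjusted p was 0.0596 and 0.0671 without KO replicates 1 and 2, with differences of -0.67 and -0.63.

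Plin3 (Entrez Gene 66905) encodes a perilipin that moves from the cytosol to newly made droplets. It read 6.93 and 7.01 in WT and 7.02 and 7.07 in KO. The KO arrays lay above the WT arrays by as little as 0.013, in a table where the groups did not overlap for 55.3% of genes. The difference was 0.08 ± 0.10 (adjusted p = 0.691; 95% interval from -0.16 to 0.31).

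Plin1, Plin4 and Plin5 had WT means under the array median of 3.14. Plin1 (Entrez Gene 103968), the main perilipin of fat cells, read 3.62 and 2.48 in WT and 2.92 and 2.52 in KO. WT replicate 1 stood above the other 3 arrays, which lay between 2.48 and 2.92. The difference was -0.33 ± 0.36 (adjusted p = 0.636), and its sign rested on that array. Without WT replicate 1 it was 0.24 (adjusted p = 0.573), and without WT replicate 2 it was -0.90 (adjusted p = 0.0324), in fits that hold a single WT array. On WT replicates 1 and 2 the summed linear signal of alveolar macrophage markers was 10785 and 9779. That of adipocyte markers was 121 and 106, and that of alveolar epithelium markers 223 and 224. The brightest genes make up most of such sums, and some single markers differed more. Marco read 7.22 and 4.43, Fabp4 7.57 and 5.21, Krt79 10.2 and 8.48, Sftpc 4.27 and 2.99 and Slc34a2 3.22 and 2.44. Hopx (4.09 and 4.65) was higher on WT replicate 2. By less, so were Chil3 (11.1 and 11.2), Abca3 (6.74 and 6.91) and Car4 (10.4 and 10.5). The median gap between the WT arrays over all genes was 0.117. These genes were picked with their values known. The part of any marked cell type in the Plin1 value was not tested.

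Plin4 (Entrez Gene 57435), a perilipin of fat cells and muscle, read 3.20 and 3.03 in WT and 2.86 and 3.35 in KO, so the WT values lay between the KO values. Plin5 (Entrez Gene 66968), typical of heart, muscle and liver, read 2.94 and 2.69 in WT and 2.66 and 3.02 in KO, in the same arrangement. Their differences were -0.01 ± 0.18 and 0.02 ± 0.16 (adjusted p = 0.975 and 0.951). Both changed sign between fits that left out different arrays, from -0.26 to 0.23 for Plin4 and from -0.16 to 0.20 for Plin5.

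**Figure D2:**
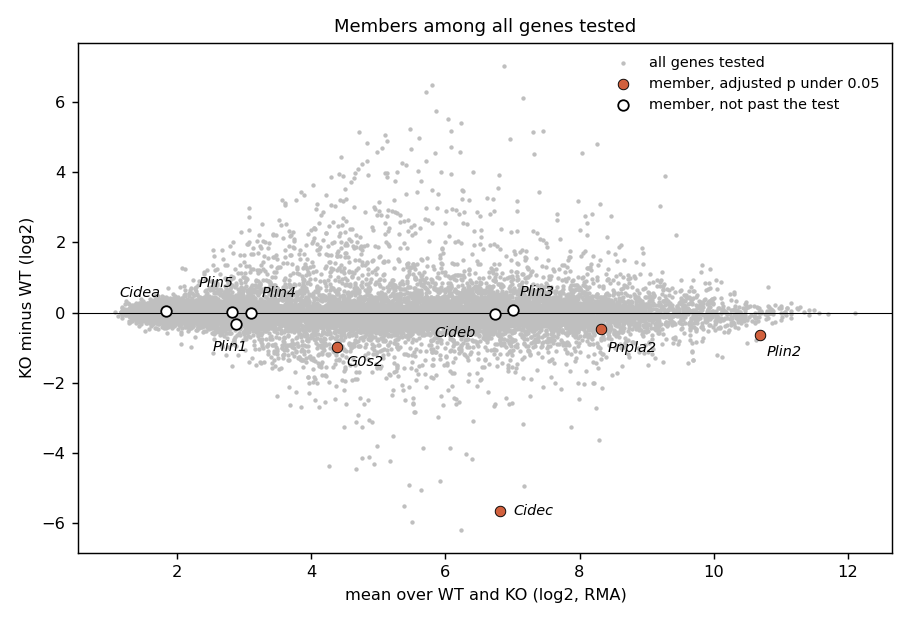
Difference between KO and WT (log2, vertical) against the mean over both groups (log2, horizontal) for the 18782 genes tested (grey) and the 10 members (filled orange where the adjusted p is under 0.05, white otherwise). Cidec, at -5.67, lies at the lower edge of the cloud, Plin2, Pnpla2 and G0s2 lie below 0, and the other 6 lie between -0.33 and 0.08.

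The genes of the lipase and of its inhibitor were both lower. Pnpla2 (Entrez Gene 66853) read 8.65 and 8.48 in WT and 8.01 and 8.16 in KO. The KO arrays were below the WT arrays with 0.31 between the nearest of them, wider than the gap within either group (0.17 and 0.16). The difference was -0.48 ± 0.11 (limma adjusted p = 0.0416), which left 71.9% of the WT level. This call was lost with any 1 array left out. The adjusted p was 0.174 and 0.0542 without WT replicates 1 and 2, and 0.194 and 0.0952 without KO replicates 1 and 2, with differences from -0.56 to -0.39.

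G0s2 (Entrez Gene 14373) read 4.93 and 4.82 in WT and 3.79 and 3.99 in KO. Both KO arrays were lower, with 0.83 between the nearest arrays against 0.11 between the WT arrays and 0.20 between the KO arrays. In KO 50.6% of the WT level was left, with values not far above the array median of 3.14. The difference was -0.98 ± 0.11 (limma adjusted p = 0.00286). It passed with each array left out, with differences from -1.08 to -0.88 and a highest adjusted p of 0.0248. The interval of G0s2 (-1.26 to -0.71) and that of Pnpla2 (-0.75 to -0.20) overlapped, and whether the inhibitor fell further than the lipase was not tested.

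**Figure D3:**
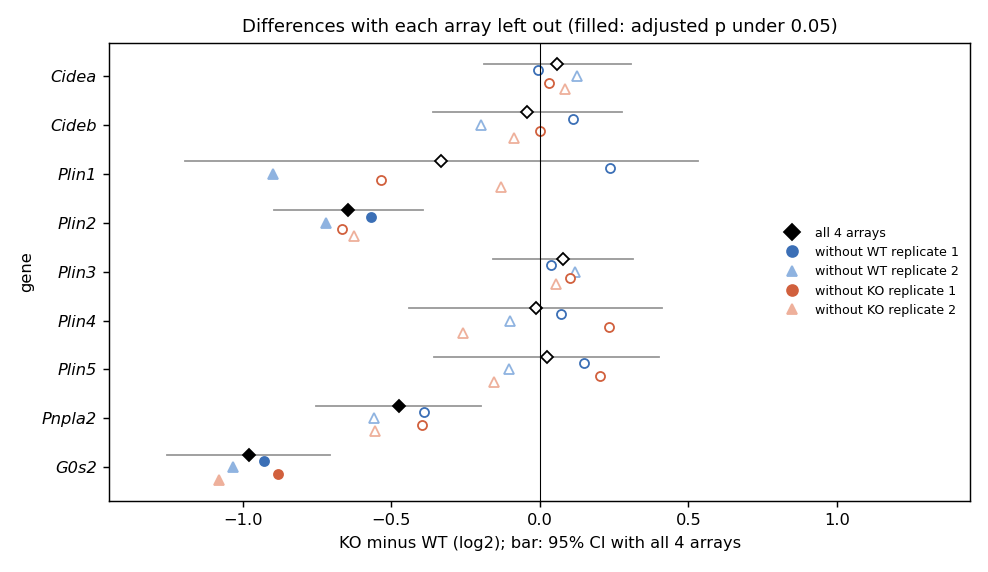
KO minus WT (log2) of 9 members, without Cidec, with all 4 arrays (diamonds, with the 95% confidence interval as a bar) and with each array left out (circles and triangles), filled where the adjusted p is under 0.05. G0s2 stays filled throughout, Plin2 loses its call without either KO array, Pnpla2 loses it without any 1 array, and Plin1 runs from -0.90 to 0.24.

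In the fits without KO replicates 1 and 2, the differences were -5.64 and -5.69 for Cidec and -0.88 and -1.08 for G0s2. The calls of Plin2 and Pnpla2 were lost there, as given above. In a limma test against a difference of at least 0.5 on the log2 scale, Cidec alone of the 10 members passed. G0s2 had an adjusted p of 0.0556 in that test. Over all 18782 genes, 336 were lower in it, against 1289 in the main test, so fewer calls are not particular to the members.

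Other genes of droplets, of triglyceride and sterol ester metabolism and of the PPAR receptors were called in both directions. Of 61 measured genes in 6 lists (70 listed), 7 were lower and 7 higher, while 47 did not pass, with a median difference of -0.009 against -0.015 over all genes. The share called in either direction over all genes was 14.3%. The lists were written for this comparison with earlier results of these arrays known, and no list was tested as a set.

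Among 12 genes of lipolysis and its regulators, 2 were lower and 0 higher by limma, beside 6.86% lower and 7.41% higher over all genes. At an unadjusted p under 0.05, 3 were lower and 2 higher. Both KO arrays lay below both WT arrays for 4 of the 12 and above them for 4, as they did for 30.0% and 25.3% of all genes. Prkar2b, which encodes a regulatory subunit of protein kinase A, the kinase that phosphorylates perilipin 1 and hormone-sensitive lipase, read 9.24 and 9.19 in WT and 7.14 and 7.30 in KO. The groups were far apart, with a difference of -1.996 ± 0.104 (limma adjusted p = 1.71e-04). Abhd5, the gene of the ATGL activator, read 8.53 and 8.20 in WT and 7.59 and 7.45 in KO. Both KO arrays were lower, by -0.84 ± 0.14 (adjusted p = 0.011), with adjusted p of 0.0541 and 0.0796 without KO replicates 1 and 2. With Pnpla2 and G0s2, transcripts of the lipase, of its activator and of its inhibitor were thus all lower on the KO arrays. Lipe and Mgll, the genes of the lipases that act after ATGL, differed by 0.18 ± 0.12 and 0.14 ± 0.10 and did not pass (adjusted p = 0.413 and 0.468). Hilpda, which encodes another ATGL inhibitor, differed by 0.56 ± 0.16 (adjusted p = 0.0685). The last 3 were picked with their values known.

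Among 15 genes of triglyceride synthesis, 3 were lower and 1 higher by limma, beside 6.86% lower and 7.41% higher over all genes. At an unadjusted p under 0.05, 4 were lower and 3 higher. Both KO arrays lay below both WT arrays for 9 of the 15 and above them for 3, as they did for 30.0% and 25.3% of all genes. The median difference was -0.14. Gpat3, whose enzyme adds the first fatty acid to glycerol 3-phosphate, read 7.83 and 7.88 in WT and 6.68 and 6.64 in KO, a difference of -1.19 ± 0.09 (limma adjusted p = 7.40e-04). It passed with each array left out. Dgat2, whose enzyme adds the last fatty acid, differed by -0.93 ± 0.20 (adjusted p = 0.0284), and Lpin1, a phosphatidate phosphatase gene, by -0.53 ± 0.12 (adjusted p = 0.0319). Dgat2 had adjusted p of 0.0612 without WT replicate 2 and of 0.159 and 0.0727 without KO replicates 1 and 2. Lpin1 had 0.113, 0.154 and 0.12 in these fits. Agpat2, whose enzyme adds the second fatty acid, was higher by 0.86 ± 0.13 (adjusted p = 0.00784; 0.0505 without KO replicate 2).

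Among 13 genes of droplet formation and trafficking 0 were lower and 2 higher by limma (0 lower and 6 higher at an unadjusted p under 0.05), beside 6.86% lower and 7.41% higher over all genes. The median difference was 0.23. With dim genes left out 5 of them were higher, and 5 with an intensity trend in limma. The higher genes were Tmem43 (0.76 ± 0.11, adjusted p = 0.00573) and Vps13c, the gene of a lipid transfer protein of membrane contacts (0.57 ± 0.09, adjusted p = 0.0113; 0.0645 and 0.0691 without KO replicates 1 and 2). Both KO arrays lay above both WT arrays for 8 of the 13, as they did for 25.3% of all genes. Bscl2, which encodes seipin, the protein that shapes new droplets, differed by 0.35 ± 0.10 (adjusted p = 0.0703) and was picked with its value known. Among 10 genes of other droplet surface proteins 0 were lower and 3 higher by limma, beside 6.86% lower and 7.41% higher over all genes. At an unadjusted p under 0.05, 1 was lower and 3 higher. Both KO arrays lay below both WT arrays for 2 of the 10 and above them for 4. The caveolin gene Cav1 read 7.63 and 7.50 in WT and 9.33 and 9.24 in KO, a difference of 1.72 ± 0.10 (adjusted p = 2.81e-04), and the ubiquitin ligase gene Rnf213 was higher by 0.81 ± 0.10 (adjusted p = 0.00399). Hsd17b7, a sterol synthesis gene, was higher by 0.54 ± 0.13 (adjusted p = 0.0405) and passed in no fit that left out an array (adjusted p from 0.0512 to 0.171). Caveolin 1 is better known as the coat of plasma membrane caveolae than as a droplet protein.

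Of the sterol ester genes only Nceh1, a cholesterol ester hydrolase gene, had a probe set with a single gene symbol. Soat1 and Soat2 had none and were not analysed here. Whether probe sets with several symbols or none cover them was not examined. Nceh1 was lower by -0.55 ± 0.12 (adjusted p = 0.0281), with adjusted p of 0.12 without WT replicate 1 and of 0.148 and 0.0697 without KO replicates 1 and 2. Among 10 PPAR receptors and partners, Ppard was higher (0.53 ± 0.10, adjusted p = 0.0167) and Cebpb lower (-0.42 ± 0.10, adjusted p = 0.0354). Ppard had adjusted p of 0.0675 without WT replicate 2 and of 0.0931 and 0.0822 without KO replicates 1 and 2, and Cebpb passed in no fit that left out an array (0.104 to 0.157). Pparg itself read 9.69 and 9.75 in WT and 9.59 and 9.73 in KO, which overlap. The position of its probes relative to the floxed part is unknown here, and its level therefore checks no label.

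**Figure D4:**
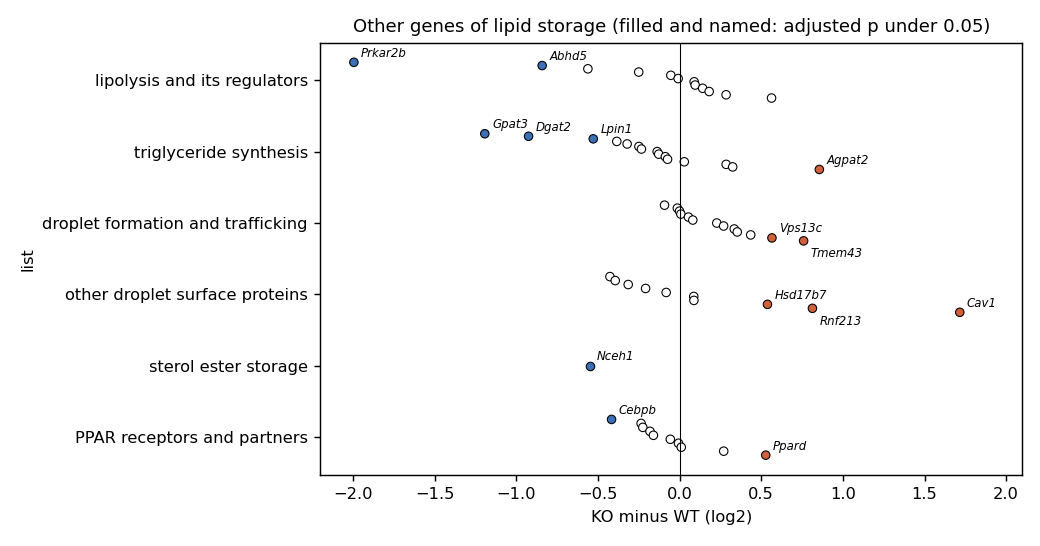
KO minus WT (log2) of the 61 measured genes in 6 lists, 1 point per gene, filled and named where the adjusted p is under 0.05 (blue lower, orange higher). The 7 lower genes lie in the lists of lipolysis, triglyceride synthesis, sterol ester storage and PPAR partners, and 5 of the 7 higher genes in the lists of droplet formation and surface proteins.

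The genes nearest to a member in pattern were found by the Euclidean distance between values centred on each gene's mean over the 4 arrays. This is a description over 4 arrays in which the genotype dominates. For Cidec they were the fatty acid-binding protein gene Fabp1 (distance 0.43), Cpne5 (0.65), the transporter gene Slco2b1 (0.76), Tc2n (0.84) and the galanin gene Gal (0.87). Fabp1 read 8.76 and 8.20 in WT and 2.55 and 2.48 in KO, a difference of -5.96 ± 0.18 (adjusted p = 2.71e-05). For Plin2 they were Elf4, Spata6, Pola2, Psen2 and Dnajc9, at distances from 0.036 to 0.048. For G0s2 they were Mdk, Mms22l, Abhd12, Ptk2b and Ppp2r1b, at distances from 0.043 to 0.082. The distance grows with the size of a difference, so distances of different members are not compared.

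Markers of other cells were measured beside these results, as sums of linear signal over each list per array, and their part in the results was not tested. The markers named were picked with their values known. Droplet coat genes are rich in fat cells, so adipocyte markers bear on them first. Of 8 measured, 6 lay under the array median in WT, among them Adipoq, Lep and Retn with values from 1.87 to 2.99 over all arrays, and the sum was 106 to 121 in WT and 78.7 to 83.2 in KO. The 1 adipocyte marker past the test was Ucp1, which read 5.80 and 5.38 in WT and 3.70 and 3.72 in KO (-1.88 ± 0.15, adjusted p = 8.26e-04). Interstitial macrophage markers were higher for 6 of 7, with sums of 73.8 to 74.3 in WT and 861 to 1109 in KO. Monocyte markers were higher for 4 and lower for 1 of 6 (327 to 357 against 414 to 456), and neutrophil markers higher for 2 and lower for 1 of 8 (275 to 453 against 1070 to 1098). The neutrophil markers past the test were S100a8 and Mmp8, both higher, and Csf3r, lower. Most of the KO sum came from Mmp8, which read 6.40 and 7.78 in WT and 9.82 and 9.88 in KO. Ngp and Ltf lay under the array median on all arrays. Both KO arrays lay above both WT arrays for 5 of the 8, as they did for 25.3% of all genes. Alveolar epithelium markers were higher for 2 and lower for 1 of 10 (223 to 224 against 323 to 348). Most of this rise came from Hopx, which read 4.09 and 4.65 in WT and 7.14 and 6.92 in KO. Ager was lower (-1.32 ± 0.12), and for Sftpc, Sftpa1, Sftpd and Lamp3 the groups overlapped. Alveolar macrophage markers were lower for 3 of 9, Cidec among them (9779 to 10785 against 7615 to 7651). At an unadjusted p under 0.05 in limma, 6 were lower and 0 higher. Both KO arrays lay below both WT arrays for 7 of the 9, as they did for 30.0% of all genes. The median difference was -2.07, while the sum rested mostly on bright genes that changed little, such as Plet1 and Chil3. Dendritic cell markers (1 higher of 7) summed to 92.6 to 106 in WT and 135 to 224 in KO. T, NK and B cell markers (1 higher of 8) summed to 48.9 to 54.6 and 56.2 to 58.6. By limma 0 passed among 5 eosinophil, 8 fibroblast and 6 endothelial markers (0, 0 and 2 at an unadjusted p under 0.05), with sums of 42.1 to 53.0, 44.5 to 45.4 and 36.6 to 47.6 in WT and of 21.8 to 54.8, 43.2 to 43.3 and 36.5 to 40.6 in KO. No marker was at 0, as RMA gives none. Of the gate genes, Itgam (CD11b) was higher by 5.76 ± 0.14 and Siglecf lower by -3.27 ± 0.17, while Ptprc (CD45) differed by -0.52 ± 0.10 and Itgax and Adgre1 were not past the test (0.24 ± 0.09 and 0.07 ± 0.11).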

How the data were processed

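Expression was measured on 4 Affymetrix arrays, 2 of WT and 2 of KO. The authors deposited log2 values for each probe set. Per the submitters' processing notes they used RMA and R 2.15.2, and the genome build is not given in the sources used. The table held 28371 probe sets from 0.96 to 12.11 with the same median (3.14) on each array, so a shift of most transcripts would not be seen, and differences of dim genes are compressed. It gives no detection calls. Of the probe sets, 21158 had 1 symbol in the platform annotation, 1881 several and 5332 none; 21128 were matched in the RefSeq gene table. For a gene with several, the probe set with the highest mean was used, which left 18782 genes with no filter on signal.

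The genotypes were compared by limma 3.58.1 under R 4.3.3 (group as the only term, empirical Bayes moderation, two-sided, 2 residual and 4.16 prior degrees of freedom), adjusted over all genes. Differences are log2 values, KO minus WT, with the model's SE. The number of arrays limits their precision. The procedure was tested on simulated data. The members and lists were chosen with earlier results of these data known. Genes named are the 10 members, Pparg, the gate genes, up to 4 genes with the smallest p of each list among those past the test, and the 5 genes nearest in pattern to Cidec, Plin2 and G0s2; a few others are marked as picked with their values known. Alternatives were another normalization, centring, a filter on dim genes, other probe set rules, an intensity trend, a robust prior, a test against 0.5, a block on the replicate number and each array left out.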

Additional observations from a re-analysis of the deposited data

How the results depend on the processing

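Repeating the quantile normalization, centring, other probe set rules and a robust prior moved no count of calls by over 1.5 times. Testing against a difference of 0.5 left 1 member lower, 336 lower and 498 higher genes in all, and 2 lower and 1 higher of the lists. With 1 array left out, 2 to 4 members were lower, 647 to 1057 genes were lower and 726 to 1227 higher in all, and 2 to 6 genes of the lists were lower and 3 to 6 higher. The list genes higher numbered 11 with dim genes left out and 11 with an intensity trend. The filter removed Cidea, Plin1, Plin4 and Plin5. The arrays share replicate numbers, but same-numbered arrays did not deviate together (r = -0.02 across genes), and with the replicate block 3 members were lower (Pnpla2 adjusted p = 0.0708), with 1168 genes lower and 1309 higher in all. Signs turned in 8 of 126 fits of members, with 0 of the 8 past the test, all with 1 array left out. The differences then ran from -0.0065 to 0.12 for Cidea, from -0.20 to 0.11 for Cideb, from -0.90 to 0.24 for Plin1, from -0.26 to 0.23 for Plin4 and from -0.16 to 0.20 for Plin5. The cause was not tested. Fits without 1 array assume that the lone array of a group varies like the other group.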
